A study of Arabidopsis thaliana with 12 samples.

Results

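A set of 10 genes of the plant water-deficit response was followed in the root tips of Arabidopsis thaliana seedlings: KIN1, KIN2, RD29A, COR15A, the dehydrin genes COR47, ERD10, ERD14 and RAB18, and the late embryogenesis abundant (LEA) genes LEA14 and LEA4-5. They were chosen by name from the 33557 genes listed in the deposited tables. All 10 are listed, 9 of them were tested by the authors in each table, and COR15A was tested in none. The groups were the line 6-6 on NaCl, 6-6 on MS, wild type (WT) on NaCl and WT on MS, with 3 samples in each per the labels. Treatment after the move lasted 24 h in each group, the MS groups included. MS is 1/2 Murashige and Skoog salts, and the NaCl groups had NaCl added to it. Seedlings were 8 days old when moved, kept under 16 h light and 8 h dark at 22 °C, and the last 1 cm or so of the root was taken. The labels do not say what 6-6 is, nor whether it is 1 insertion, clone or mixed line. They do not give the NaCl concentration, the background accession or the number of plants per sample either. The series title names the inositol phosphate kinase gene ITPK4, which was lower in 6-6 on both media. ITPK4 stood at 2.75 FPKM in 6-6 against 27.7 FPKM in WT on NaCl (log2 fold change -3.33) and at 2.95 FPKM in 6-6 against 24.9 FPKM in WT on MS (-3.08), with q-values of 0.00186 and 0.00396 in the authors' deposited tables.

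LEA proteins are small, very hydrophilic proteins that build up in drying seeds and in vegetative tissue under drought, cold and salt, where they are thought to protect membranes and other proteins. Dehydrins are the LEA class that carries lysine-rich segments able to bind membranes. Many of these genes are switched on through short promoter elements. Transcription factors of abscisic acid (ABA) signalling bind the ABA-responsive element (ABRE), and CBF and DREB factors bind the dehydration-responsive element (DRE). KIN1, COR15A, RD29A and RAB18 have long served as marker genes of cold, drought or ABA.

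The upstream letters of the genes that changed most, or that form neighbouring copies, are shown because they carry these elements at known places. Sequences are from RefSeq assembly TAIR10.1, written 5′ to 3′ on the strand of the gene, and the capitals mark the matched letters. The RefSeq gene models start before those of the deposited tables for several genes. The KIN1 and KIN2 matches shown lie inside the RefSeq models but upstream of the starts that the tables list. So do the RD29A ABRE match and the RAB18 matches at 227 and 206 bases. The COR15A and ERD10 matches shown lie inside the gene in both models, and are not upstream of its start. The ABRE core was searched as ACGTG and the DRE core as CCGAC, on both strands, in the 500 bases before the start codon, and matches to the same core that overlap were joined. Distances count from the first matched base to the start codon, and the window can hold untranslated leader.
KIN1 ABRE core, 211 bases before the start codon, chr5:5209769-5209798, plus strand: aaactaaaacgaCACGTGaagtcttgatca
KIN2 ABRE core, 218 bases before, chr5:5211736-5211765, plus strand: aaactaaaacgaCACGTGatgtcttgatca
KIN1 DRE core, 178 bases before, chr5:5209802-5209830, plus strand: gataaatagctaCCGACataaggcaaaac
KIN2 DRE core, 185 bases before, chr5:5211769-5211797, plus strand: aataaaaagctaCCGACataaggcaaaaa
KIN1 ABRE core, 138 bases before, chr5:5209842-5209871, plus strand: tcaaatgtaatcCACGTGgttttagattac
KIN2 ABRE core, 145 bases before, chr5:5211809-5211838, plus strand: ttaaacgtaatcCACGTGgtttcagattac
KIN2 ABRE core, 128 bases before, chr5:5211826-5211855, plus strand: ggtttcagattaCACGTGgcaccacacaag
RD29A DRE core, 352 bases before, chr5:21240565-21240593, plus strand: aatagacatggaCCGACtactaataatag
RD29A DRE core, 302 bases before, chr5:21240615-21240643, plus strand: ataaatatcataCCGACatcagtttgaaa
RD29A DRE core, 245 bases before, chr5:21240672-21240700, plus strand: aaagatatactaCCGACatgagttccaaa
RD29A ABRE core, 143 bases before, chr5:21240774-21240802, plus strand: cagacgcttcatACGTGtccctttatctc
RAB18 ABRE core, 405 bases before, chr5:26519542-26519570, minus strand: aggaggagcattACGTGtcctgttagcta
RAB18 ABRE core, 227 bases before, chr5:26519364-26519392, minus strand: tttaaatacgaaCACGTatggcgaaacac
RAB18 DRE core, 206 bases before, chr5:26519343-26519371, minus strand: cgaaacaccacgCCGACattttctgctgc
COR15A DRE core, 266 bases before, chr2:17712216-17712244, minus strand: acaatttcatggCCGACctgctttttttt
ERD10 DRE core repeat, 278 bases before, chr1:7089365-7089393, minus strand: ttcatccaCCGACCGACCGACgtaaaaga
LEA4-5 ABRE core, 244 bases before, chr5:2090540-2090569, minus strand: aaggctttccaaCACGTGtaggaccaataa

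The ABRE core stood before 9 of the 10 genes and the DRE core before 9, and 8 had both. Of 27443 protein-coding genes with a window of the same length, 34.9% held the ABRE core, 23.4% the DRE core and 9.10% both. KIN1 held 3 ABRE matches and 1 DRE match, and KIN2 had the same order of matches with 1 more ABRE match nearest to the start codon. RD29A held 4 DRE matches and 1 ABRE match, while RAB18 held 4 ABRE matches and 1 DRE match. ERD10 held no ABRE match and ERD14 no DRE match in this window. The RefSeq gene start lies 499 bases before the start codon in ERD10 and 1209 bases before it in COR47. Their windows are thus almost or wholly inside the RefSeq gene, and sequence upstream of that start was hardly searched for them. By the starts that the deposited tables list, however, the COR47 matches lie upstream of the gene, and the ERD10 match still lies inside it. A match of letters is a description of the sequence and not a measured binding site. The genes were chosen by name and include marker genes of cold, drought or ABA, so these shares describe them and do not test them.

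**Figure D1:**
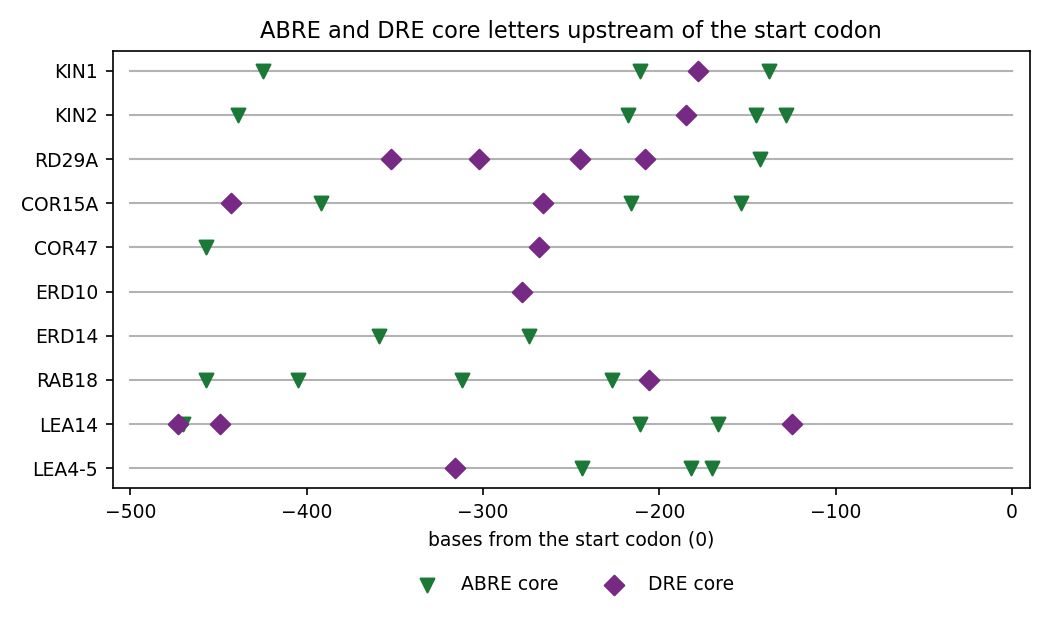
Positions of the ABRE core (triangles) and DRE core (diamonds) in the 500 bases before the start codon of each gene, with distance from the start codon in bases on the horizontal axis. KIN1 and KIN2 show the same order of matches apart from 1 more ABRE core in KIN2, RD29A has 4 DRE cores, and ERD10 has a single joined DRE repeat.

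All expression values are FPKM (fragments scaled by transcript length and library total), 1 value per group as the authors deposited it. With no value for single samples, the spread within a group cannot be shown, and how deeply each library was sequenced is unknown. A gene is called, and is said to rise, fall, or be higher or lower, where the authors' q-value was below 0.05. A log2 fold change is the log2 ratio of the 2 group FPKM. The 4 tables were scaled separately, and the same group differed between tables by a median ratio of 0.979 to 1.02, so each comparison uses its own table. In a bulk sample, fewer cells that express a gene and less RNA per cell cannot be told apart.

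The levels of the 10 genes spanned a wide range. In 6-6 on NaCl the order was KIN2 at 2379.6 FPKM, KIN1 at 1830.4, COR47 at 665, ERD14 at 581, ERD10 at 361, LEA14 at 327, RD29A at 28.2, LEA4-5 at 10.03, RAB18 at 0.771 and COR15A at 0.224. In WT on MS it was KIN2 at 1147 FPKM, COR47 at 774, ERD14 at 620.0, ERD10 at 249, LEA14 at 144, KIN1 at 85.5, RD29A at 10.8, LEA4-5 at 6.35, RAB18 at 0.415 and COR15A at 0.0249. Among all listed genes, KIN1 ranked 9 in 6-6 on NaCl and 747 in 6-6 on MS, against 90 in WT on NaCl and 2164 in WT on MS. The 10 genes together held 0.718% of the summed FPKM in 6-6 on NaCl and 0.436% in 6-6 on MS, against 0.450% in WT on NaCl and 0.334% in WT on MS.

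**Figure D2:**
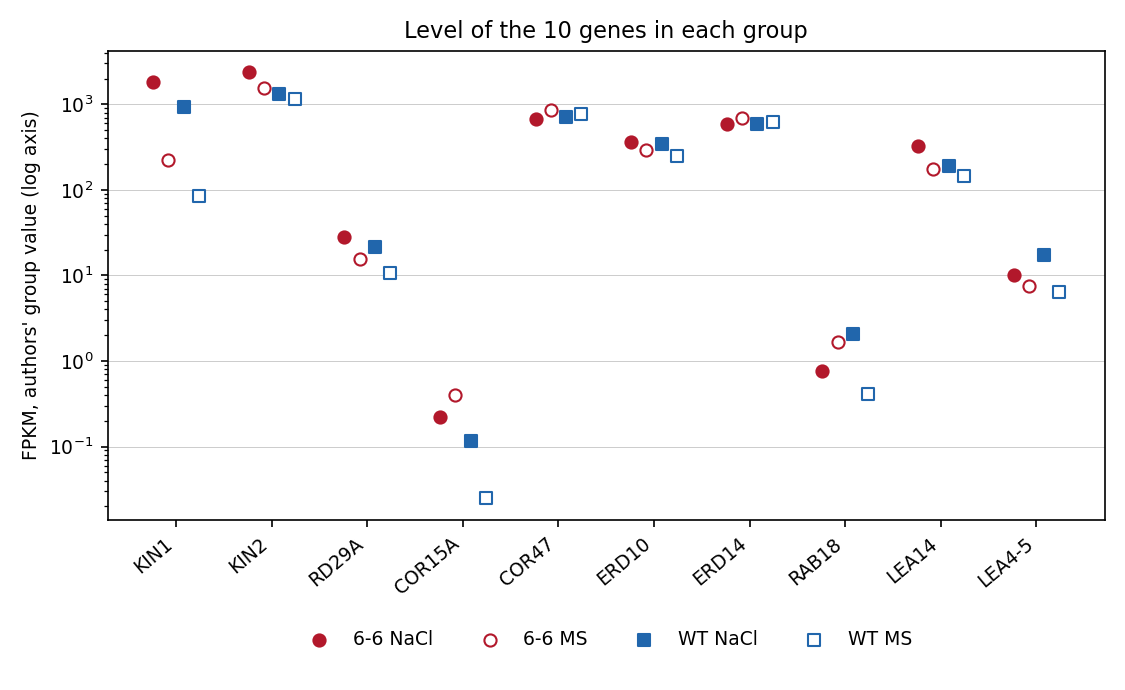
FPKM of the 10 genes on a log axis, with 1 point for the authors' value of each group (6-6 red circles, WT blue squares, filled on NaCl and open on MS). KIN1 spans 85.5 to 1830.4 FPKM, the COR47 and ERD14 values lie close together, and RAB18 and COR15A are the lowest genes in each group.

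KIN1 (AT5G15960, chromosome 5, 5209898 to 5210727, TAIR10) and KIN2 (AT5G15970, chromosome 5, 5211911 to 5212665, also called COR6.6) encode small alanine-rich hydrophilic proteins induced by cold and ABA. They are neighbours on the same strand, with 1183 bases between them. KIN1 gave the largest salt response of the 9 tested genes. It stood at 1830.4 FPKM in 6-6 on NaCl, against 221 FPKM in 6-6 on MS, a rise of 8.28-fold. In WT it stood at 927 FPKM on NaCl, against 85.5 FPKM on MS, a rise of 10.8-fold. The log2 fold changes were 3.05 in 6-6 and 3.44 in WT, with q-values of 0.000441 and 0.000482 in the authors' deposited tables. Both salt groups stood far above both MS groups.

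KIN2 was already abundant on MS and changed less. It stood at 2379.6 FPKM in 6-6 on NaCl, against 1535 FPKM in 6-6 on MS, a rise of 1.55-fold, for which the authors' deposited table gave q = 0.000441. In WT it stood at 1332 FPKM on NaCl, against 1147 FPKM on MS, a log2 fold change of 0.22 that was not called (q-value 0.136 in the authors' deposited table). The ratio of KIN1 to KIN2 was 0.769 in 6-6 on NaCl and 0.144 in 6-6 on MS, against 0.696 in WT on NaCl and 0.0745 in WT on MS. It was nearer to 1 on NaCl in both lines.

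Both KIN genes were higher in 6-6 than in WT on each medium. On MS, KIN1 stood at 218 FPKM in 6-6 against 83.7 FPKM in WT (2.61-fold), and on NaCl at 1870.7 FPKM in 6-6 against 939 FPKM in WT (1.99-fold). KIN2 stood at 1515 FPKM in 6-6 against 1123 FPKM in WT on MS (1.35-fold), and at 2432 FPKM in 6-6 against 1349 FPKM in WT on NaCl (1.80-fold). The q-values in the authors' deposited tables were 0.00396 and 0.00186 for KIN1 and 0.0164 and 0.00186 for KIN2. The KIN2 call on MS failed at a stricter q-value threshold of 0.01. It also failed when p was taken anew from the authors' test statistic under a normal distribution (adjusted p 1.00), and when values were centred on the median gene besides (adjusted p 0.795). The authors' deposited p-values do not follow this statistic over the genes. A p taken from it therefore cannot decide whether a call holds, here or below. The coding sequences of the copies are 95.0% identical over 201 bases, and the longest identical run of their transcripts is 58 bases. How the counting assigned reads from such stretches was not tested, so the split between KIN1 and KIN2 is uncertain to that extent.

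RD29A (AT5G52310, chromosome 5, 21240849 to 21243613), listed under the symbol LTI140 and also known as COR78, encodes a hydrophilic protein whose promoter is a standard reporter of drought and cold. It rose on NaCl in both lines. It stood at 28.2 FPKM in 6-6 on NaCl against 15.4 FPKM in 6-6 on MS (1.82-fold), and at 21.5 FPKM in WT on NaCl against 10.8 FPKM in WT on MS (1.99-fold). It was also higher in 6-6 than in WT, with 15.3 FPKM in 6-6 against 10.6 FPKM in WT on MS, and 28.8 FPKM in 6-6 against 21.7 FPKM in WT on NaCl. The 4 q-values in the authors' deposited tables lay between 0.000441 and 0.00396. The calls between lines failed with p taken from the test statistic, where the adjusted p was 0.287 on MS and 0.444 on NaCl.

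The neighbour of RD29A, RD29B, an ABA-responsive gene of the same kind, was barely detected. Its values were 0.392 FPKM in 6-6 on NaCl and 0.131 FPKM in 6-6 on MS, against 0.382 FPKM in WT on NaCl and 0.117 FPKM in WT on MS, and it was not tested. COR15A (AT2G42540, chromosome 2, 17711032 to 17712330), listed as COR15, encodes a chloroplast protein that protects membranes during freezing. It lay at 0.224 FPKM in 6-6 on NaCl and 0.401 FPKM in 6-6 on MS, against 0.117 FPKM in WT on NaCl and 0.0249 FPKM in WT on MS. Its neighbouring copy COR15B stayed between 0.0760 and 0.123 FPKM over all tables. Neither COR15 copy was tested, and no fold change is given at these levels.

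COR47 (AT1G20440, chromosome 1, 7084409 to 7085772) and ERD10 (AT1G20450, chromosome 1, 7088003 to 7089606) are neighbouring genes for acidic dehydrins, which bind membranes and keep other proteins from aggregating. ERD14 (AT1G76180, chromosome 1, 28586676 to 28587931) encodes the third acidic dehydrin of the set. These genes were abundant in every group, and of the 3 ERD10 alone was called, in 1 comparison. ERD10 stood at 342 FPKM in WT on NaCl against 249 FPKM in WT on MS, a rise of 1.37-fold, for which the authors' deposited table gave q = 0.000912. In 6-6 it stood at 361 FPKM on NaCl against 289.9 FPKM on MS, a log2 fold change of 0.31 that was not called (q-value 0.0669 in the authors' deposited table).

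COR47 was not called in any comparison. It stood at 665 FPKM in 6-6 on NaCl against 862 FPKM in 6-6 on MS (log2 fold change -0.37), and at 703 FPKM in WT on NaCl against 774 FPKM in WT on MS (-0.14). ERD14 stood at 581 FPKM in 6-6 on NaCl against 687 FPKM in 6-6 on MS (-0.24), and at 589 FPKM in WT on NaCl against 620.0 FPKM in WT on MS (-0.07). The ratio of COR47 to ERD10 was 1.84 in 6-6 on NaCl and 2.97 in 6-6 on MS, against 2.06 in WT on NaCl and 3.11 in WT on MS. Their coding sequences are 74.1% identical, and the longest identical run of their transcripts is 32 bases. How the counting assigned reads between COR47 and ERD10 was not tested. With p taken from the authors' test statistic instead, COR47 and ERD14 passed the threshold with negative signs for salt in 6-6 (adjusted p 1.56e-05 and 0.0370). ERD10 passed it there with a positive sign (adjusted p 0.00286). The authors' deposited p-values were 0.0162 for COR47, 0.1369 for ERD14 and 0.01725 for ERD10. COR47 had a statistic of -5.05, whereas LEA14 for salt in WT had 2.21 with a deposited p-value of 0.00015. Because the deposited p-values do not follow the statistic, this rule cannot decide these calls. Between lines, the 3 genes had log2 fold changes of 0.16 to 0.23 on MS and -0.06 to 0.09 on NaCl, none of them called. After centring on the median gene, ERD10 passed with a positive sign for 6-6 over WT on MS (adjusted p 0.0425). The sign of ERD14 between lines on NaCl flipped.

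RAB18 (AT5G66400, chromosome 5, 26518277 to 26519242), the ABA-responsive dehydrin gene, was the lowest tested gene of the set and the only 1 called in opposite directions for salt. It stood at 0.771 FPKM in 6-6 on NaCl against 1.69 FPKM in 6-6 on MS, and at 2.08 FPKM in WT on NaCl against 0.415 FPKM in WT on MS. The log2 fold change was -1.13 in 6-6, a fall, for which the authors' deposited table gave q = 0.00516. It was 2.32 in WT, a rise, for which the authors' deposited table gave q = 0.000482. The high groups were 6-6 on MS and WT on NaCl, and the low groups 6-6 on NaCl and WT on MS. In 6-6 against WT it was higher on MS (log2 fold change 2.04) and lower on NaCl (-1.42). These 4 comparisons share their groups and are not separate observations. With 1 FPKM added to each value, the salt response in 6-6 minus that in WT was -1.72 on the log2 scale, where the plain ratio gave -3.45.

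LEA14 (AT1G01470, chromosome 1, 172146 to 172948) encodes a LEA protein with a folded domain, unlike most of the family. It stood at 327 FPKM in 6-6 on NaCl against 175 FPKM in 6-6 on MS (1.86-fold), and at 191 FPKM in WT on NaCl against 144 FPKM in WT on MS (1.32-fold). Both rises were called, with q-values of 0.000441 in 6-6 and 0.00131 in WT in the authors' deposited tables. The WT call failed with p taken from the test statistic (adjusted p 0.205). On NaCl, LEA14 was higher in 6-6, at 334 FPKM against 193 FPKM in WT (1.73-fold). On MS it stood at 173 FPKM in 6-6 against 141 FPKM in WT, which was not called (q-value 0.147 in the authors' deposited table).

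LEA4-5 (AT5G06760, chromosome 5, 2089492 to 2090430) encodes a disordered group 4 LEA protein that protects enzymes during drying and contributes to drought tolerance. It stood at 10.03 FPKM in 6-6 on NaCl against 7.61 FPKM in 6-6 on MS, a log2 fold change of 0.40 that was not called (q-value 0.0605 in the authors' deposited table). In WT it stood at 17.2 FPKM on NaCl against 6.35 FPKM on MS, a rise of 2.71-fold, for which the authors' deposited table gave q = 0.000482. The WT value on NaCl stood above the other 3 groups. On NaCl it was lower in 6-6, at 10.3 FPKM against 17.4 FPKM in WT (log2 fold change -0.76), a call that failed after centring on the median gene (adjusted p 0.0551). On MS the log2 fold change between lines was 0.27, which was not called.

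**Figure D3:**
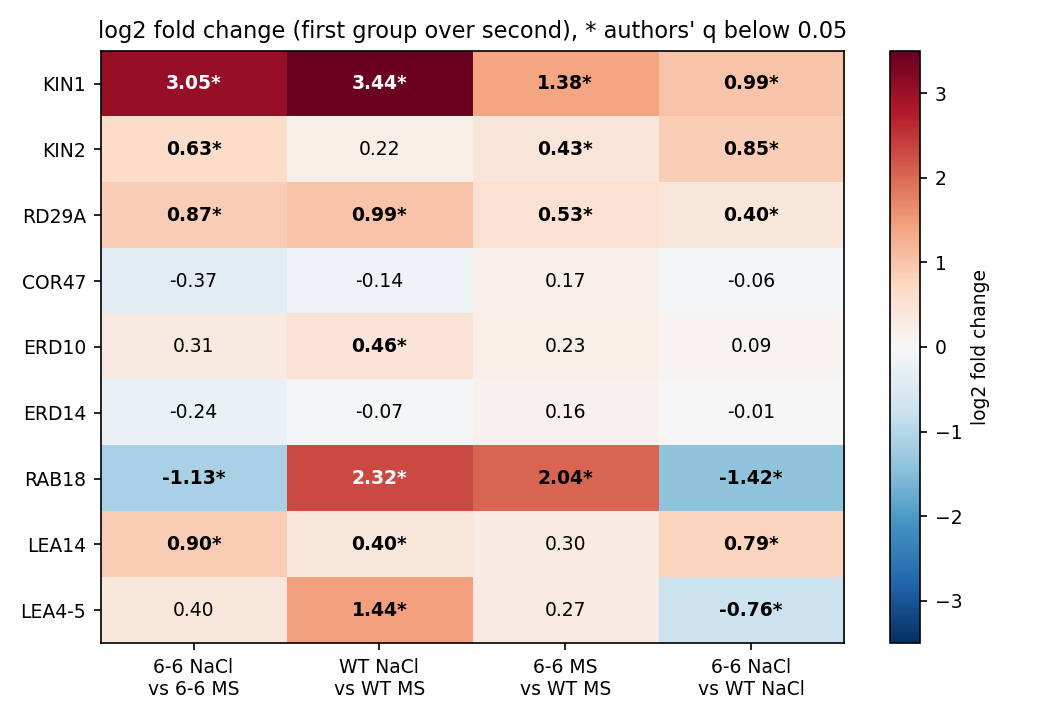
The log2 fold changes of the 9 tested genes in the 4 comparisons, first group over second, in colour and in figures, with an asterisk where the authors' q-value was below 0.05. KIN1 is positive throughout, RAB18 is positive for salt in WT and between lines on MS and negative in the other columns, and COR47 and ERD14 carry no asterisk.

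Counted over the set, salt in 6-6 raised 4 of the 9 tested genes (KIN1, KIN2, RD29A and LEA14) and lowered RAB18, while 24.1% of all tested genes were called, 13.7% up and 10.4% down. In WT salt raised 6 (KIN1, RAB18, LEA4-5, RD29A, ERD10 and LEA14) and lowered none, where 21.8% of all tested genes were called, 11.3% up and 10.5% down. The median log2 fold change of the 9 genes was 0.40 in 6-6 and 0.46 in WT, and that of all tested genes was 0.03 in 6-6 and 0.01 in WT. Between lines on MS, 4 of 9 were higher in 6-6 (KIN1, KIN2, RD29A and RAB18) and none lower, where 3.02% of all tested genes were called, 1.13% up and 1.89% down. All 9 had a positive log2 fold change there, with a median of 0.30, whereas 32.8% of all tested genes were positive and their median was -0.07. Between lines on NaCl, 4 of 9 were higher in 6-6 (KIN1, KIN2, LEA14 and RD29A) and 2 lower (RAB18 and LEA4-5), where 6.71% of all tested genes were called, 3.04% up and 3.67% down. With p taken from the test statistic, 3 of the 9 passed with a negative sign for salt in 6-6 (4.1% of all tested genes). On MS, 2 passed with a positive sign for 6-6 over WT (0.401%). After centring on the median gene, 3 passed with a negative sign for salt in 6-6 (4.49%). On NaCl, 1 then passed with a negative sign for 6-6 over WT (0.253%). At a q-value below 0.01, 3 were higher in 6-6 on MS (0.647%). With p from the statistic, the share of all tested genes called in either direction was 10.1% for salt in 6-6, 8.45% for salt in WT, 0.596% between lines on MS and 1.04% between lines on NaCl. After centring it was 10.1% for salt in 6-6, 8.35% for salt in WT, 0.591% between lines on MS and 1.1% between lines on NaCl. The genes were picked with earlier results of these data known, so these shares describe them and do not test them.

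The salt response in 6-6 minus that in WT was computed for each gene as a difference of log2 fold changes, with no test. It was positive for 2 of the 9 genes, LEA14 (0.50) and KIN2 (0.42). Negative values were -3.45 for RAB18, -1.04 for LEA4-5, -0.39 for KIN1, -0.23 for COR47, -0.17 for ERD14, -0.14 for ERD10 and -0.12 for RD29A. Whether any of these differs from 0 was not tested, because values per sample are needed.

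**Figure D4:**
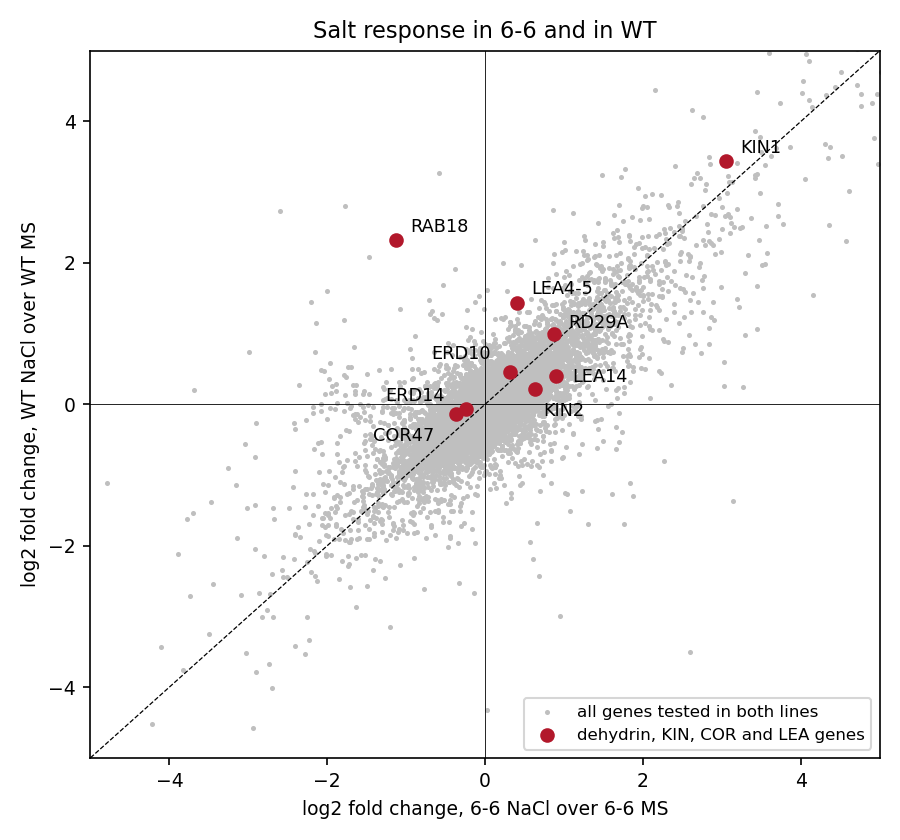
Salt response of each gene in 6-6 (horizontal axis) and in WT (vertical axis), both as log2 fold change of NaCl over MS, for the 9 tested genes in red and all 19479 genes tested in both lines in grey. The dashed line marks equal responses, 32 grey genes lie outside the axes, and RAB18 at -1.13 and 2.32 is the red point farthest from the line.

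Of the other 44 genes of the Arabidopsis LEA family, 23 were tested in no table and 8 were listed at 0 in each value, among them the seed gene EM1, listed as ATEM1. Of those tested for salt, 5 of 19 rose in 6-6 and 8 of 20 in WT, and none fell in either line by the authors' q-value (1 in 6-6 and 0 in WT at an unadjusted p below 0.05). Of all tested genes, 13.7% rose and 10.4% fell in 6-6, and 11.3% rose and 10.5% fell in WT. AT4G38410, a dehydrin gene, stood at 38.5 FPKM in 6-6 on NaCl against 3.91 FPKM in 6-6 on MS (log2 fold change 3.30), and at 15.9 FPKM in WT on NaCl against 4.39 FPKM in WT on MS (1.86). SAG21, a mitochondrial LEA gene linked to senescence and oxidative stress, stood at 864 FPKM in 6-6 on NaCl against 247 FPKM in 6-6 on MS (1.80), and at 990.1 FPKM in WT on NaCl against 279 FPKM in WT on MS (1.83). On the log2 scale, AT3G02480 rose by 3.19 in 6-6 and 3.42 in WT, AT2G23120 by 0.61 in 6-6 and 0.53 in WT, and AT1G52690 by 1.48 in 6-6 and 3.24 in WT. In WT, AT3G53770 was called at 1.74 FPKM on NaCl while it was listed at 0 on MS. The median over the tested genes with a finite value was 0.61 in 6-6 and 0.53 in WT.

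Between lines, 1 of 15 tested genes of this list was called on MS, where 3.02% of all tested genes were called, and 3 of 21 on NaCl, where 6.71% were. On MS, AT2G23120 was higher in 6-6, at 518 FPKM against 316 FPKM in WT (log2 fold change 0.71). On NaCl, AT4G38410 (1.29) and AT2G23120 (0.79) were higher in 6-6 and AT1G52690 was lower (-1.01). The medians were -0.02 on MS and -0.01 on NaCl. The dehydrin gene XERO1 stood at 1.72 FPKM in 6-6 against 0.811 FPKM in WT on MS and was not called (q-value 0.272 in the authors' deposited table). LTI30, an abundant dehydrin gene, stood at 218 FPKM in 6-6 against 186 FPKM in WT on MS and was called in none of the 4 comparisons. AT2G46140 on MS (-0.29) and AT3G15670 on NaCl (1.19) were not called between lines either.

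**Figure D5:**
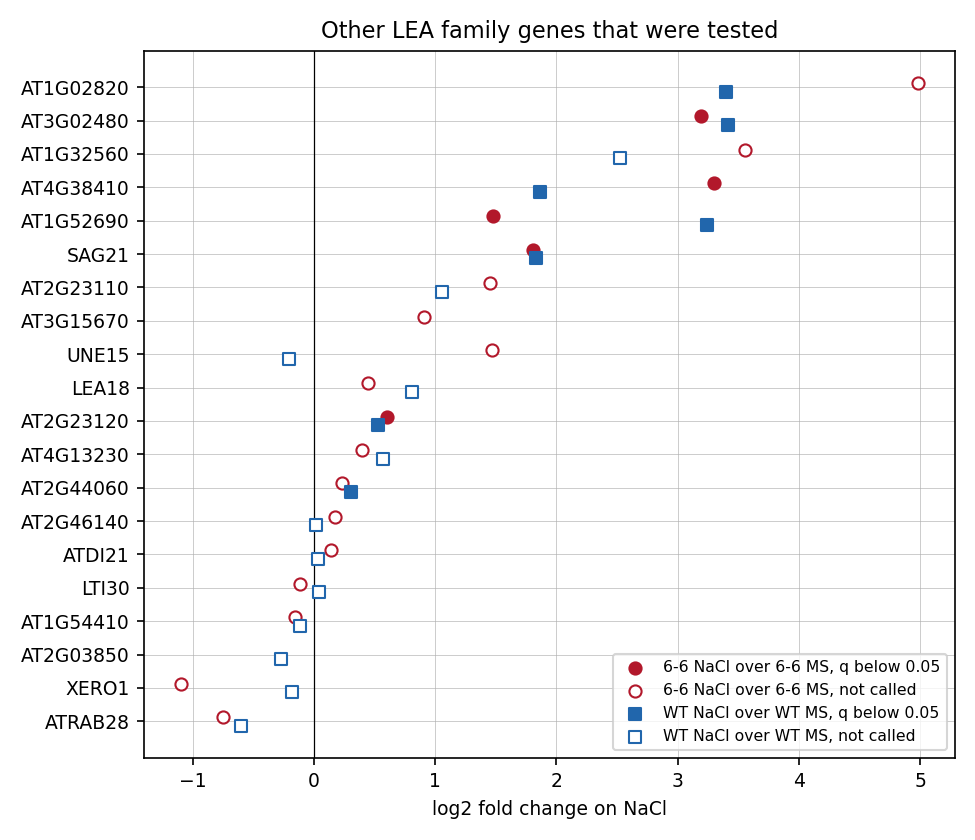
The log2 fold changes on NaCl for the other LEA family genes that were tested and had a finite value, in 6-6 (red circles) and WT (blue squares), filled where the authors' q-value was below 0.05. Each filled point lies right of 0, and AT3G53770, listed at 0 in WT on MS, has no point.

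For all tested genes, the median log2 fold change was 0.03 for salt in 6-6, 0.01 for salt in WT, -0.07 between lines on MS and -0.05 between lines on NaCl. Among 20 other cold and drought genes, 17 were tested, and salt raised 5 and lowered 4 in each line (medians 0.14 in 6-6 and 0.23 in WT). All tested genes gave shares of 13.7% up and 10.4% down in 6-6, and 11.3% up and 10.5% down in WT. P5CS1, the proline synthesis enzyme gene, rose by 1.27 on the log2 scale in 6-6 and 1.71 in WT, and the alcohol dehydrogenase gene ADH1 by 1.77 in 6-6 and 1.72 in WT. RCI2A, a small membrane protein gene of the cold response, fell by 0.54 in 6-6 and by 0.69 in WT, and GOLS3, a galactinol synthase gene, fell by 1.06 in 6-6 and by 0.73 in WT. Between lines, the lipid transfer protein gene LTP3 was higher in 6-6 on MS (0.76) and on NaCl (0.66), and NCED3, the ABA synthesis gene, was lower in 6-6 on NaCl (-0.71). The other 16 tested genes on MS and 15 on NaCl were not called, among them RD22 (0.63) and RCI2B (-0.35) on MS and P5CS1 on NaCl (-0.32), and the medians were -0.03 on MS and -0.08 on NaCl. Between lines, 3.02% of all tested genes were called on MS and 6.71% on NaCl.

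Of 18 regulators of these genes, salt raised 4 and lowered 4 of 13 tested in 6-6, and raised 3 and lowered 4 of 14 in WT (medians -0.29 in 6-6 and -0.05 in WT). Salt raised 13.7% and lowered 10.4% of all tested genes in 6-6, and raised 11.3% and lowered 10.5% in WT. CBF1 and CBF4 were at or near 0 in each group and were not tested, and CBF2 and CBF3 stayed below 1 FPKM and were not called. DREB2A, a drought-responsive DRE-binding factor gene, fell by 0.79 in 6-6 and by 0.61 in WT, and ZAT12 by 0.82 in 6-6 and by 0.92 in WT. ICE1, which activates CBF genes, rose by 0.83 in 6-6 and 0.72 in WT, and the zinc finger gene ZAT10 by 1.08 in 6-6 and 1.27 in WT. Between lines, DREB2A was higher in 6-6 on MS (0.46, 12.9 FPKM against 9.33 FPKM in WT), and none of 13 was called on NaCl by the authors' q-value, with 1 higher and 1 lower at an unadjusted p below 0.05 (medians -0.01 on MS and 0.01 on NaCl). The share of all tested genes called between lines was 3.02% on MS and 6.71% on NaCl. SNRK2.3, an ABA signalling kinase gene, had a log2 fold change of -0.27 on MS, and ABF2, an ABRE-binding factor gene, had -0.30 on NaCl, neither of them called. Among other such factor genes, salt lowered ABF3 by 0.53 in 6-6 and by 0.46 in WT. ABF4 fell with salt by 0.36 in 6-6 and by 0.39 in WT. ABF1 rose with salt by 0.61 in 6-6 and was not called in WT, and ABF2 was called for salt in neither line.

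The genes closest to KIN1 over the 4 log2 fold changes, among 18945 genes tested in all tables with at least 1 FPKM in a group, were WRKY48, pEARLI 1 and AT2G43620, at Euclidean distances of 0.981, 1.02 and 1.03. pEARLI 1, a gene for a proline-rich protein of the lipid transfer type, stood at 583 FPKM in 6-6 on NaCl against 69.2 FPKM in 6-6 on MS, and at 279 FPKM in WT on NaCl against 43.3 FPKM in WT on MS, and was called in all 4 comparisons. WRKY48, a transcription factor gene, reached 9.60 FPKM in 6-6 on NaCl and was called in 3. The nearest genes to RAB18 were AT5G45740, AT4G26055 and the plastid gene RPS2, at distances of 1.13, 1.23 and 1.35. AT5G45740 and AT4G26055 were called in no comparison, and RPS2 was called for salt in 6-6 (-1.79). The 4 comparisons rest on 4 groups, so this likeness is a description.

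Tissue markers were read beside these results. All 15 markers of root hair, endodermis, stele, meristem and root cap were present, between 1.88 and 340.3 FPKM. Some of them were called for salt, 2 up (EXPA7 and WOX5) and 3 down (CASP1, SMB and FEZ) in 6-6, and 3 up (EXPA7, MYB36 and WOX5) and 3 down (CASP1, PLT1 and FEZ) in WT. The share of all tested genes called was 24.1% for salt in 6-6 and 21.8% in WT. Between lines it was 3.02% on MS and 6.71% on NaCl. WOX5, the quiescent centre gene, rose by 1.80 on the log2 scale in 6-6 and 0.68 in WT, and CASP1, the endodermal barrier gene, fell by 0.59 in 6-6 and by 0.39 in WT. Between lines none of the 15 was called on MS by the authors' q-value (2 at an unadjusted p below 0.05), and on NaCl WOX5 was higher in 6-6 (1.00) while RHD6 (-0.35), PHO1 (-0.34) and SMB (-0.48) were lower. Of the seed markers, CRA1 and CRU3 were listed at 0 in every group, and OLEO1 did not exceed 0.0473 FPKM. The 3 markers of green tissue rose with salt. Their summed level was 99.4 FPKM in 6-6 on NaCl against 29.9 FPKM in 6-6 on MS, and 170.2 FPKM in WT on NaCl against 49.9 FPKM in WT on MS, with 3 of 3 rising in each line. Between lines it was 29.5 FPKM in 6-6 against 48.8 FPKM in WT on MS, with 3 of 3 lower, and 102 FPKM in 6-6 against 172 FPKM in WT on NaCl, with 1 of 3 lower. The part of these tissue markers in the results for KIN1, RD29A and the LEA genes was not tested.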

How the data were processed

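RNA was sequenced from root tips in 12 samples, 3 in each of 4 groups. Tools named in the submitters' processing notes are edgeR, HTSeq and HISAT2, and the build is TAIR10, with no versions or roles, while the 4 deposited tables have the column layout of Cuffdiff gene output per the file headers. Each table holds 1 FPKM value per group as the authors deposited it, so samples were combined beforehand. The authors also deposited a test statistic, used as a score with a sign, and for each gene a p-value, at smallest 5e-05, and a q-value. The q-values matched a Benjamini-Hochberg adjustment over the tested genes of each table.

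Log2 ratios and counts were computed with Python 3.11.15, pandas 2.3.3 and scipy 1.17.1, and the adjustment was tested on simulated data. Calls use the authors' q-value below 0.05, since tests on values per sample could not be run. Nothing in the labels tells whether replicates were separate cultures, so these q-values may measure only technical spread. Alternatives were a threshold of 0.01, p taken from the statistic under a normal distribution, the same after centring on the median gene, a filter at a mean of 1 FPKM, pseudocounts of 1 and 0.1, and values from the other tables. The authors' deposited p-values do not follow the statistic over the genes. The alternatives that use the statistic therefore cannot decide whether a call holds.

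The members and lists were chosen with earlier results of these data known. Named genes are all members, up to 4 genes per other list and comparison with the smallest p-value, the neighbours COR15B and RD29B, the 3 nearest genes to KIN1 and to RAB18, and ITPK4. CBF1, CBF2, CBF4, EM1, ABF1, ABF3 and ABF4 were named after their values were seen. Positions are TAIR10 positions from the files with 1 added to the start. Upstream sequence was read from RefSeq TAIR10.1, and 7 of the 10 members have the same start or end in both.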

Additional observations from a re-analysis of the deposited data

How the results depend on the processing

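Of 144 recomputed tests of single genes, 126 kept their direction and their side of the threshold, 10 lost the call and 7 gained one. The 1 that changed sign was ERD14 between lines on NaCl, at 0.0465 after centring on the median gene. Only centring could change a direction, and the 0.01 threshold and the 1 FPKM filter reuse the deposited p-values. These counts therefore do not measure how stable the calls are. With p taken from the authors' test statistic, 3 genes passed with a negative sign for salt in 6-6 where 1 had been called. This count was the same after centring. On MS, 2 genes passed with a positive sign for 6-6 over WT where 4 had been called. After centring, 1 gene passed with a negative sign for 6-6 over WT on NaCl where 2 had been called. The KIN2 call on MS also failed at a q-value below 0.01. The cause of these shifts was not tested. The other counts of called genes stayed within 1.5 times under each alternative run. Another 108 log2 fold changes, with a pseudocount or with values from the other tables, had no test and kept their sign. A pseudocount added to both values cannot change a sign, and the other tables hold the same groups at nearly constant scale. The kept signs are therefore no support for these results. The salt response in 6-6 exceeded that in WT for 2 of 9 genes under every scale tried. These scales reuse the same groups, and centring shifts each difference by the same amount, so this is no separate support. No paired analysis was possible because the tables hold 1 value per group, and leaving out single samples was not run for the same reason. The unknown depth limits what can be said of RAB18 and COR15A.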
